A study of Caenorhabditis elegans with 2 samples.

Results

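The genes described here encode the proteins of the mitochondrial ribosome of Caenorhabditis elegans. They were chosen by name, as every nuclear protein-coding gene of the Ensembl annotation whose symbol begins with mrpl- (large subunit) or mrps- (small subunit). There were 70 such genes among 19973 nuclear protein-coding genes, 41 for the large and 29 for the small subunit. The symbol sets the subunit, and RefSeq product names differ from it for a few genes: mrps-18C is annotated as large subunit protein uL3m, and mrpl-48 as a protein with the uS10 domain of the small subunit. Binding of PHA-4, the worm's FoxA transcription factor, was measured at their promoters by chromatin immunoprecipitation and sequencing (ChIP-seq). Both samples were whole L4 larvae aged 48 h of strain RW12220, in which CRISPR had inserted TY1, EGFP and 3xFLAG tags into the endogenous pha-4 gene on chromosome V. The worms had been synchronised as starved L1 larvae after bleaching, and the sonicated chromatin had a size range of 200 to 800 bp; the immunoprecipitation is described as anti-GFP, although the antibody label reads pha-4. The 2 biological replicates formed 1 group, with no second genotype, stage or treatment, so no condition was compared and no p-value is given. Whole worms hold many tissues, and binding in few cells cannot be told apart from weak binding in many.

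Mitochondria keep their own ribosome, which translates the few messages of the mitochondrial genome. Those messages encode core subunits of the respiratory chain and of the ATP synthase, while nearly all proteins of the mitochondrial ribosome are encoded in the nucleus and imported. In worms, lowered expression of mitochondrial ribosomal protein genes such as mrps-5 is known for activating the mitochondrial unfolded protein response and lengthening life. PHA-4 specifies the pharynx in the embryo and is also known for its part in lifespan extension under dietary restriction. As a forkhead factor it binds short sites such as TGTTTAC, with some variation in their letters.

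The promoter window of a gene ran from 1000 bp before its annotated start to 500 bp past it, and a deposited peak counted for the gene when its summit fell there. The main peak list was the less strict of 2 thresholded lists made from both replicates, with 2920 nuclear peaks. Its peaks had an irreproducible discovery rate (IDR, a measure of how poorly a peak's rank repeats) of at most 0.01. This is a −log10 IDR of at least 2, read from the ranked list from pooled reads. A separate list ranks replicate against replicate. A peak can therefore pass the limit without an overlapping candidate in each replicate, as at mrpl-38. The strength of a peak is given as its deposited signal value, which was the authors' own. All 2920 peaks carry the same value in the ranked list from pooled reads, so these lists share a scale, while each replicate's lists have values of their own. The median over the nuclear peaks of the main list was 103.17. The number of reads behind the lists is unknown.

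PHA-4 peaks lay at the promoters of 13 of the 70 genes, or 18.6% (95% Wilson interval 11.2 to 29.2). Over all nuclear protein-coding genes the share was 7.15%. The peaks stood at 9 of 41 large subunit genes (mrpl-12, mrpl-15, mrpl-23, mrpl-28, mrpl-32, mrpl-37, mrpl-38, mrpl-45 and mrpl-50) and at 4 of 29 small subunit genes (mrps-7, mrps-21, mrps-28 and mrps-35). These shares were 22% (12 to 36.7) and 13.8% (5.5 to 30.6), and their intervals overlapped widely. Their median signal value was 91.9, against 112.49 over all 1429 genes with a promoter peak, and 3 of them (mrps-28, mrpl-23 and mrpl-28) stood above 81.0% or more of the nuclear peaks. Intervals cover counting error over genes only.

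**Figure D1:**
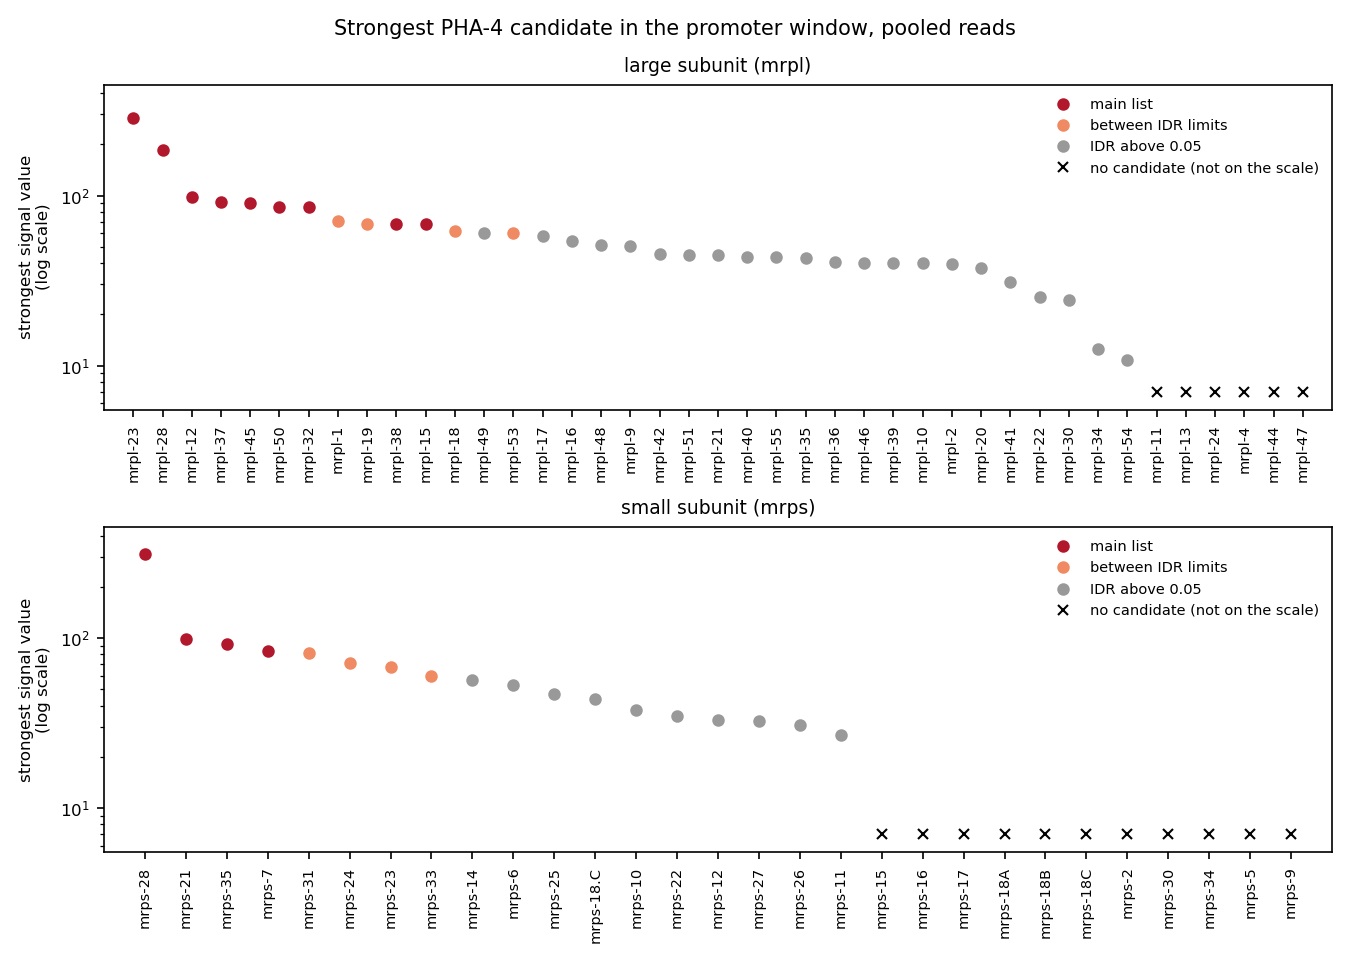
Strongest candidate peak in the promoter window of each of the 70 genes, in the ranked list from pooled reads, on a logarithmic axis of signal value, with genes of each subunit ordered by it. Red genes are in the main list (13 genes), orange genes lie between an IDR of 0.01 and 0.05 (8 genes), grey genes have a candidate with an IDR above 0.05 and crosses mark the 17 genes with none; only mrps-28, mrpl-23 and mrpl-28 stand well above 100.

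The sequences under 5 of these summits show how different the sites are. They are shown because the first pair are the summits that hold a forkhead sequence, the next is a peak between a divergent pair of genes, and the last pair are far upstream of the gene they count for. Each is 101 bases of the WBcel235 (ce11) assembly, RefSeq copy, centred on the summit and written on the strand of the named gene, with copies of the forkhead word TGTTTGC in capitals, which on this strand read as its reverse complement. None overlaps an annotated coding exon.
mrpl-28, chrII:156056-156156, minus strand: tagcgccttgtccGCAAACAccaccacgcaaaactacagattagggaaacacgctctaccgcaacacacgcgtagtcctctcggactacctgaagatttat
mrpl-45, chrIII:1202321-1202421, minus strand: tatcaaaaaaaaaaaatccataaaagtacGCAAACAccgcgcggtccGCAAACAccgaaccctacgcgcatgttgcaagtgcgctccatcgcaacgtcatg
mrps-7, chrIV:14767838-14767938, minus strand: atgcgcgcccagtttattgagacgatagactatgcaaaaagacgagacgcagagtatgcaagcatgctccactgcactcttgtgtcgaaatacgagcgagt
mrps-28, chrV:19643200-19643300, plus strand: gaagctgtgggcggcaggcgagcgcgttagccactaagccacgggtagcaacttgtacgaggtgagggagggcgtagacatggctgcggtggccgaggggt
mrps-21, chrIV:4660426-4660526, minus strand: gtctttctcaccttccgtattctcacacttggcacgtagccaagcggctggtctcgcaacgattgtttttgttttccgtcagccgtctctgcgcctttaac

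Among large subunit genes, mrpl-28 (product bL28m) had the clearest peak close to its own start. Its peak at chrII:156046-156149 had a signal value of 184.45, above 81.0% of the nuclear peaks of the main list, and its summit lay 97 bp upstream of the start. No other gene shared that summit, no other protein-coding start was nearer, and the summit sequence holds 1 TGTTTGC. The peak was also in the list of replicate 1, with a signal value of 138.04 and the same summit. Replicate 2 had an overlapping candidate of 41.21 that missed its list, with a −log10 IDR of 1.24 and a summit 61 bp away.

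The peak at mrpl-45 (product mL45) has 2 copies of TGTTTGC under its summit and lies between genes that point away from each other. Its signal value was 89.80. The summit stood 363 bp upstream of mrpl-45 but 175 bp upstream of Y119D3B.12, on the other strand, whose start was therefore nearer. Replicate 1 listed it at 65.57 with the same summit. In replicate 2 the overlapping candidate had a value of 23.76 and a −log10 IDR of 0.57, far under the threshold.

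Similar shared summits were found at mrpl-12 and mrpl-37. The mrpl-12 peak (98.40) was 526 bp upstream of that gene and 207 bp upstream of Y39A1A.22, which starts 733 bp from mrpl-12 in the opposite direction. The mrpl-37 peak (91.90) was 650 bp upstream of that gene and 207 bp upstream of lin-38. For both, the partner's start was the nearer one, and the summit sequences hold none of the 3 forkhead words.

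At mrpl-32, mrpl-50, mrpl-38 and mrpl-15 the summit fell in no other gene's window. The mrpl-32 peak (85.11, product bL32m) was 395 bp upstream of the start, and a weaker main-list summit (34.45) lay nearer, at 187 bp upstream. The mrpl-50 peak (85.45) was 36 bp upstream, inside the 3′ UTR of cct-2, a cytosolic chaperonin subunit gene that ends 26 bp before mrpl-50. The weakest were mrpl-38 (68.19, 623 bp upstream) and mrpl-15 (68.03, 563 bp upstream), stronger than at most 11.1% of the list.

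Of the small subunit genes, mrps-7 and mrps-35 had a peak close by. The mrps-7 peak (83.54, product uS7m) was 158 bp upstream of mrps-7 and 313 bp upstream of Y57G11C.3 on the other strand, so that mrps-7 was the nearer. A weaker main-list summit lay 395 bp upstream of mrps-7. With 471 bp between the starts, that summit was nearer to Y57G11C.3. The mrps-35 peak (92.26, product mS35) was 108 bp upstream of mrps-35 and 281 bp inside sws-1, in the 5′ UTR of that gene. The strongest summit at each was nearest to the mitochondrial ribosomal protein gene.

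The strongest peak of all, at mrps-28, lies at the far edge of the window and inside another gene. It had a signal value of 312.67, above 95.2% of the list, and its summit was 989 bp upstream of mrps-28, within an intron of Y43F8C.7 and within 250 bp of the snoRNA gene Y43F8C.22. The nearest protein-coding start was that of Y43F8C.7. The second strongest, at mrpl-23 (286.24), was 985 bp upstream of mrpl-23, inside fars-1, a phenylalanyl-tRNA synthetase gene. It fell in annotated exons of a pseudogene and of the noncoding RNA T08B2.14, with the snoRNA gene T08B2.13 within 250 bp. The mrps-21 peak (98.56) was 959 bp upstream of mrps-21 but 275 bp upstream of F29B9.11, the gene that precedes mrps-21 on the same strand, and 515 bp upstream of jmjd-1.2, a histone demethylase gene, on the other.

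Summits more than 900 bp upstream thus made up 3 of 13 at these genes (23.1%), against 3.99% over all genes with a promoter peak. The median position was 526 bp upstream, between 989 and 36 bp, against 233 bp upstream over all genes with a promoter peak. No summit was downstream of the start, where 13.4% of all genes with a promoter peak had theirs. A start of the mitochondrial ribosomal protein gene was the nearest protein-coding start for 8 of 13 summits (61.5%), against 78.2% over all genes with a promoter peak. When a summit could count only for the nearest start of a gene of any type, an assignment chosen after the values were seen, 7 of the 70 genes kept a peak and mrpl-12, mrpl-23, mrpl-37, mrpl-45, mrps-21 and mrps-28 did not. Over all nuclear protein-coding genes, with or without a peak, the share was 4.44%. In a narrower window from 500 bp upstream to 200 bp downstream the count was 6 of 70 (8.57%), against 5.23% of all genes. Messages of many worm genes begin with a spliced leader, so an annotated start can lie downstream of where transcription begins, and its part in these distances was not tested.

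**Figure D2:**
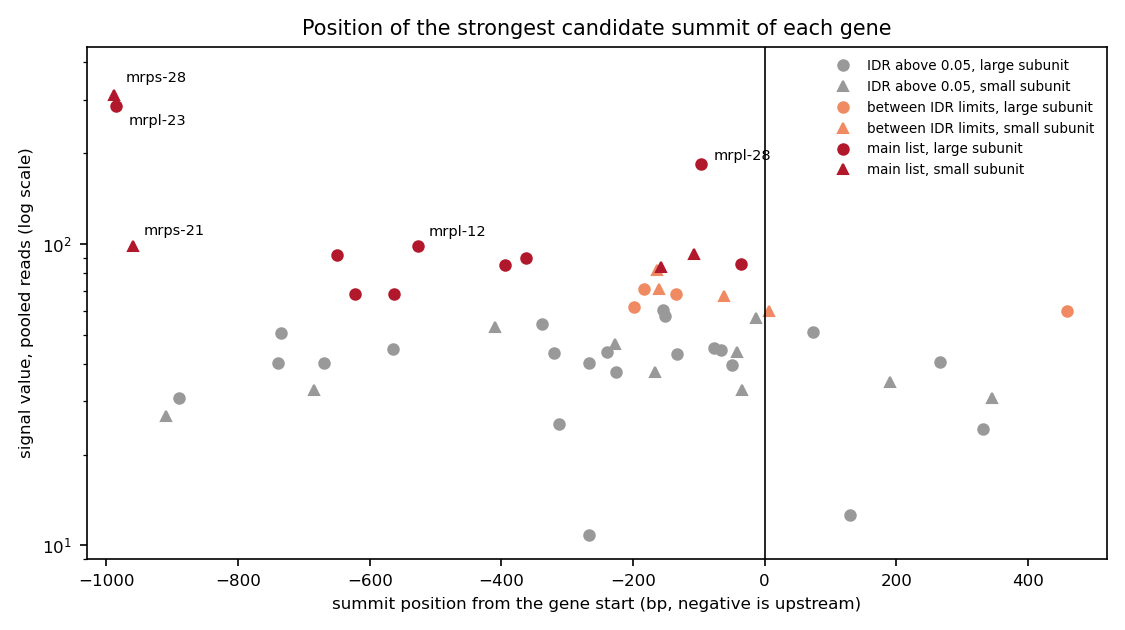
Summit position from the gene start (horizontal axis, bp) and signal value in pooled reads (vertical logarithmic axis) of the strongest candidate of the 53 genes that have one; circles are large and triangles small subunit genes. The 13 red points are main-list peaks, all upstream of the start, with mrps-28 and mrpl-23 at the left edge and mrpl-28 the strongest near the start.

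The replicates differed at these promoters. By the same window, the list of replicate 1 gave 7 of 70 genes (10%, against 5.53% of all genes) and that of replicate 2 gave 3 of 70 (4.29%, against 3.85%). No gene was in the list of a replicate and not in the main list. The 7 were mrpl-23, mrpl-28, mrpl-32, mrpl-38, mrpl-45, mrps-7 and mrps-21, and the 3 were mrpl-15, mrpl-37 and mrps-28, so no gene was counted in both. Of all nuclear protein-coding genes with a main-list promoter peak, 33.7% were counted in both.

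The absence of any gene from both lists came partly from the edge of the window. For mrps-28 the summit in replicate 1 (213.83) lay 45 bp farther from the gene, and for mrpl-23 the summit in replicate 2 (59.35) was shifted by 37 bp, and both passed the 1000 bp limit. Counted by overlap with the main-list peak, these 2 were in the lists of both replicates. The list of replicate 1 held 8 of 13 peaks (61.5%, against 68.4% over all genes with a promoter peak). That of replicate 2 held 4 of 13 (30.8%, against 44.7%). The peaks of mrpl-12, mrps-35 and mrpl-50 were in neither (23.1%, against 20.4%). Overlap with both replicate lists was thus 15.4% at these genes and 33.5% over all genes with a promoter peak.

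For the 3 peaks in neither list, each replicate still had an overlapping candidate. At mrpl-12 replicate 1 gave 67.86 and replicate 2 gave 34.02. At mrps-35 the values were 54.78 and 39.97, and at mrpl-50 they were 58.08 and 19.22. Their −log10 IDR was 1.8 and 0.17 at mrpl-12, 1.45 and 1.96 at mrps-35, and 1.89 and 0.77 at mrpl-50. The mrpl-50 candidate of replicate 2 had its summit 214 bp upstream of the gene, against 36 bp in the main list. With 84912 and 47072 nuclear candidates in the replicates, an overlap alone says little. The candidates at mrps-21 in replicate 2 (32.41 beside 71.52 in replicate 1), mrpl-32 (17.77 beside 74.81) and mrps-7 (23.33 beside 72.22) were likewise under that replicate's threshold. The other way round, mrpl-37 (43.48 in replicate 1, 48.58 in replicate 2) and mrpl-15 (31.10 and 48.89) were listed in replicate 2 alone. At mrpl-38 replicate 2 had no overlapping candidate beside the 64.92 of replicate 1. The replicates' values are on scales of their own, with medians over all nuclear candidates of 18.6 and 11.6.

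**Figure D3:**
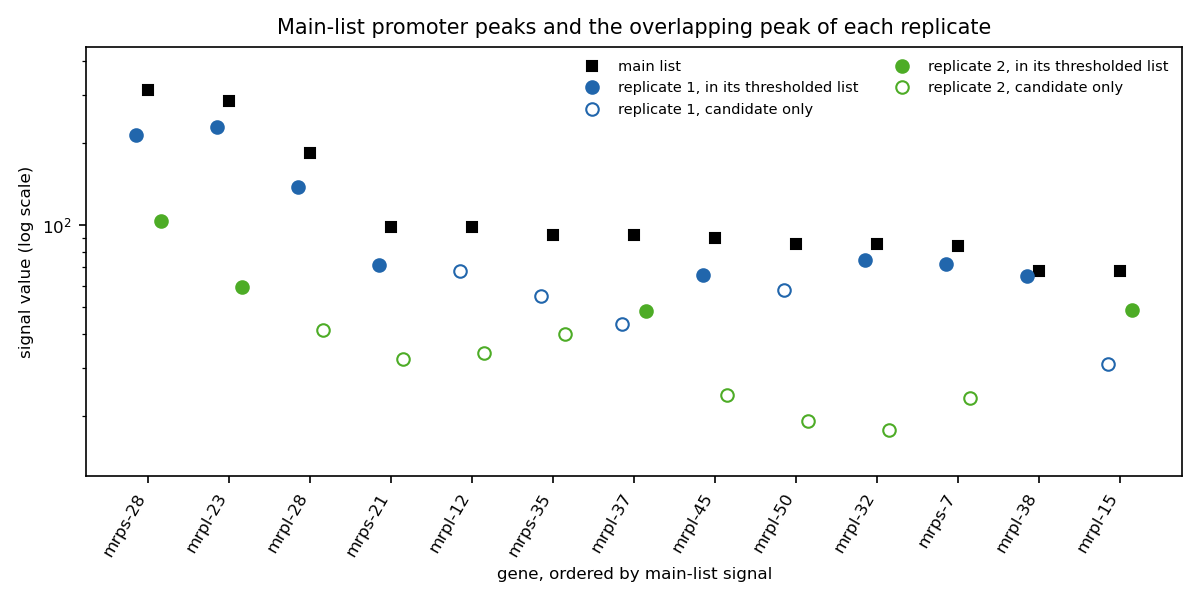
Signal value on a logarithmic axis at the 13 main-list promoter peaks, ordered by it: black squares are the main list, blue circles replicate 1 and green circles replicate 2, filled where the peak is in that replicate's thresholded list. Only mrps-28 and mrpl-23 are filled in both replicates, and mrpl-38 has no green circle.

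The stricter list from both replicates held 6 of the 70 genes (8.57%, against 4.15% of all genes): mrps-28, mrpl-23, mrpl-28, mrps-21, mrpl-12 and mrps-35, the 6 strongest of the main list. Of these, 3 were large and 3 small subunit genes, so that the order of the subunit shares turned, with 7.32% of large and 10.3% of small subunit genes.

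Many genes without a called peak had a candidate peak. In the ranked list from pooled reads, 53 of 70 genes (75.7%, 64.5 to 84.2) had a candidate of any strength in the window, against 52.0% of all genes. They were 35 of 41 large subunit genes (85.4%) and 18 of 29 small subunit genes (62.1%). These 53 include the 13 genes of the main list. Of the other 57 genes, 40 had a candidate (70.2%), against 48.3% of all genes without a main-list promoter peak. Over the 40 genes the median strongest value was 43.75, against 35.06 over all such genes. Their summits had a median position 162 bp upstream, and 20 of 40 were within 200 bp of the start, against 30.2% over all such genes.

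Those nearest to the threshold by IDR in pooled reads were at mrpl-1 and mrps-24, mrpl-18 and mrps-23. The start of emc-6, a gene of the endoplasmic reticulum membrane complex, lies between the starts of mrpl-1 and mrps-24 (product uS3m), which point away from each other and share 1 candidate with a signal value of 70.85 and a −log10 IDR of 1.81. That candidate is 184 bp upstream of mrpl-1, 160 bp upstream of mrps-24 and 149 bp upstream of emc-6, whose start is the nearest of the 3. The mrpl-18 candidate (61.98, 199 bp upstream) had a −log10 IDR of 1.74 and that of mrps-23 (67.05, 62 bp upstream) 1.72. At an IDR limit of 0.05 these 4 genes and mrps-33, mrpl-19, mrps-31 and mrpl-53 joined, for 21 of 70 (30.0%), while the share of all genes was 10.6%. The value alone did not set the order, since mrps-31 at 81.90 was above mrpl-38 and mrpl-15 of the main list but had a −log10 IDR of 1.44. In the ranked list of replicate 1, mrpl-17 (57.06, −log10 IDR 1.91) and mrps-18B (52.31, 1.84) came nearer to the limit. Pooled reads gave mrpl-17 a −log10 IDR of 0.81 and mrps-18B no candidate.

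Each replicate had candidates at most of the 70 genes, at uneven strength. Replicate 1 had one at 57 genes (81.4%, against 57.2% of all genes) and replicate 2 at 47 (67.1%, against 44.5%). Both had one at 40 of the 70 genes, and at 7123 of all 19973 genes. Over these 40 genes the median strongest values were 34.27 and 19.23, and their rank correlation across genes was 0.31 (Spearman; Pearson's r of log10 values 0.24). Over all 7123 genes with a candidate in both, these were 0.48 and 0.57. The strongest summits of the replicates were within 100 bp of each other at 20 of 40 genes (50%), against 39.0% of all such genes. Genes are not replicates, and neighbours such as mrpl-1 and mrps-24 share a peak.

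At 17 genes the pooled list had no candidate in the window, and at 6 of them (mrpl-24, mrpl-44, mrps-15, mrps-16, mrps-17 and mrps-30) neither had any replicate. The lifespan gene mrps-5 was among the 17. It had no peak in any thresholded list, and its only candidate was in replicate 2, with a signal value of 21.52, 830 bp upstream. The nearest main-list summit to mrps-5 was 12548 bp away. The death-associated protein gene dap-3, which encodes a small subunit protein but falls outside the naming rule, had no called peak either. Its candidates were 27.49 in pooled reads, 61 bp downstream of the start, and 13.55 in replicate 2, with none in replicate 1.

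Mitochondrial ribosomal protein genes sit close to other genes more often than nuclear genes as a whole. For 25 of 70 (35.7%) the nearest upstream gene started within 1000 bp on the other strand (head-to-head), against 17.4% of all genes. Another 29 (41.4%, against 20.1%) followed within 500 bp of the end of a gene on the same strand (close tandem). The other 16 were the rest. They include genes that overlap a neighbour, such as mrps-35, which has a main-list peak and overlaps sws-1. In 19 of the 29 close tandem genes (65.5%) the gap was 80 to 120 bp, with a median of 106 bp over the 29, against 23.2% and 150 bp over all close tandem genes. In worms, genes spaced about that far apart are often transcribed together as an operon from the promoter of the first gene, but no operon annotation was used here. Among them mrps-2 and mrpl-4 follow each other, and mrps-22 follows dap-3.

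Promoter peaks stood at 5 of 25 head-to-head genes (20%, against 13.2% of all such genes), at 4 of 29 close tandem genes (13.8%, against 7.40%) and at 4 of 16 others (25.0%, against 5.40%). The Wilson intervals of the 3 shares overlapped, from 8.86 to 39.1, 5.5 to 30.6 and 10.2 to 49.5. Because a downstream gene may be read from the first promoter of its run, the start of the first gene in each unbroken run of close tandem genes was also examined. This was chosen after the data were seen.

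The first gene of the run had a main-list promoter peak for 10 of the 29 close tandem genes (34.5%), against 12.6% over all 4016 close tandem genes. Of these 10, only mrpl-32 and mrps-21 also had a peak at their own start, and for mrps-21 it is the same peak. The strongest were at rpn-3, a proteasome subunit gene upstream of mrpl-32 (281.5, 183 bp upstream of rpn-3), clsp-1, upstream of mrpl-54 (260.78, 253 bp) and nrde-2, a nuclear RNA interference gene upstream of mrps-14 (250.87, 920 bp). The run of mrpl-48 begins at vps-37 (199.33), that of mrpl-30 at W04B5.5 (120.24), that of mrps-33 at F21D5.7 (107.0) and that of mrpl-41 at misc-1, a mitochondrial carrier gene (105.55). The run that holds mrps-26 begins at atp-2, the gene of the ATP synthase beta subunit, with a peak of 71.83 at 188 bp upstream of atp-2, and that of mrpl-53 at tag-124 (65.34). The gap to the gene just upstream was 411 bp for mrpl-32, 374 bp for mrpl-54 and 236 bp for mrpl-41. For the rest of the 10 it was between 82 and 114 bp. Counting a peak at the gene's own start or at the first gene of its run gave 21 of the 70 genes (30.0%), against 9.17% of all genes. The runs of mrps-5, which follows sel-1, and of mrps-2 and mrpl-4, which follow natc-1, had none.

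**Figure D4:**
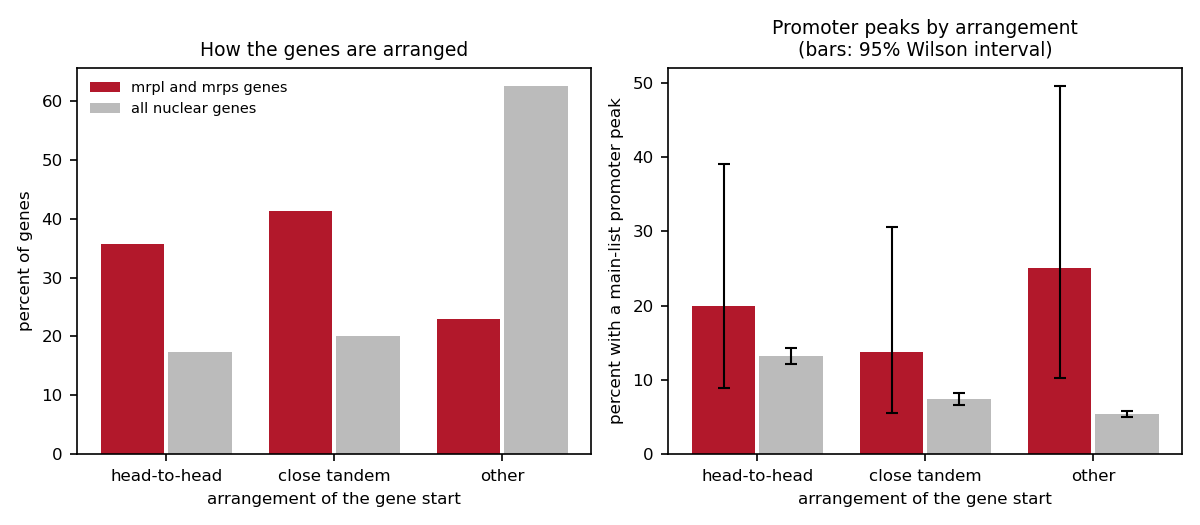
Left, percent of the 70 mrpl and mrps genes (red) and of all nuclear protein-coding genes (grey) in each arrangement; right, percent of the genes of each arrangement with a main-list promoter peak, with 95% Wilson intervals. The red bars are higher than the grey for head-to-head and close tandem genes on the left (35.7 and 41.4 against 17.4 and 20.1), and on the right the 3 red intervals overlap each other.

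Forkhead sequences were counted in the promoter, taken as 250 bp before to 50 bp after the gene start, on both strands. TGTTTAC was present at 4 of 70 genes (5.71%, against 4.77% of all promoters of that length), TGTTTGC at 9 (12.9%, against 7.42%) and TATTTAC at 10 (14.3%, against 6.74%). At least 1 of the 3 was found in 21 promoters (30.0%, against 17.7%). The same 3 words with their letters in reverse order, a control for base composition, were found in 16 (22.9%, against 19.9%). The promoters had a median GC content of 32.3%, against 34.3% over all genes. Of the 21 genes with a forkhead word in the promoter, 5 had a main-list peak (23.8%), beside 18.6% of the 70 genes, and over all genes with a word the share was 7.62%. The GATA-type word TGATAA (27.1%, against 30.2%) and the E-box CACGTG (7.14%, against 5.82%) had shares near those of all promoters.

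Under the 13 summits themselves, 50 bp to each side, the only forkhead word present was TGTTTGC, at mrpl-28 and mrpl-45 (15.4%, against 3.42% of all nuclear summits of the main list). At least 1 of the 3 words was at 6.92% of all summits. The control words in reverse order were at 5.07% of all summits and at 0 of the 13. A summit within 250 bp of an annotated small noncoding RNA gene, the case for mrps-28 and mrpl-23, was found for 10.1% of all genes with a promoter peak. GTTCGANNC, part of the B box of the internal promoter of tRNA genes and searched for after the sequences were seen, was present on either strand within 100 bp of 1 of the 13 summits, that of mrps-28 (7.69%). Over all genes with a promoter peak it was present at 7.07%, and over all nuclear summits at 12%. A match of letters describes the sequence and does not show which protein was bound.

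Other mitochondrial and ribosomal gene lists give a scale for these shares. Among 47 genes of the cytosolic large ribosomal subunit, 23 had a main-list promoter peak (48.9%, 35.3 to 62.8), and among 31 of the small subunit 20 had one (64.5%, 46.9 to 78.9). Both intervals lie above that of the mitochondrial ribosomal protein genes of both subunits together (11.2 to 29.2), and the medians of the peaks were 131.19 and 135.32 against 91.9. By subunit, the large subunit intervals overlap slightly, 12 to 36.7 for the mitochondrial against 35.3 to 62.8 for the cytosolic genes. Those of the small subunit do not (5.5 to 30.6 against 46.9 to 78.9). Respiratory chain and ATP synthase genes, assembly factors with a cox- symbol included, had a peak at 15 of 47 (31.9%, 20.4 to 46.2), led by cox-5A (537.89), atp-1 (301.21) and cox-6A (276.23). Mitochondrial import, chaperone and protease genes had one at 11 of 30 (36.7%, 21.9 to 54.5), led by the chaperonin gene hsp-60 (506.56), ddp-1 (221.93) and tomm-20 (168.78), the last 2 being genes of protein import. These intervals overlap that of the mitochondrial ribosomal protein genes.

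The remaining genes of mitochondrial translation, such as tRNA synthetases and elongation factors, had a peak at 2 of 21 (9.52%, 2.65 to 28.9). These were ears-2 (251.62, 18 bp upstream) and aars-1 (132.32, 81 bp upstream), both tRNA synthetase genes. Against this, the cytosolic ribosome had a candidate of any strength in pooled reads at all 47 large and 29 of 31 small subunit genes, where the mitochondrial ribosome had 35 of 41 and 18 of 29. The lists were chosen with results of these data known, and no test was made between them.

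**Figure D5:**
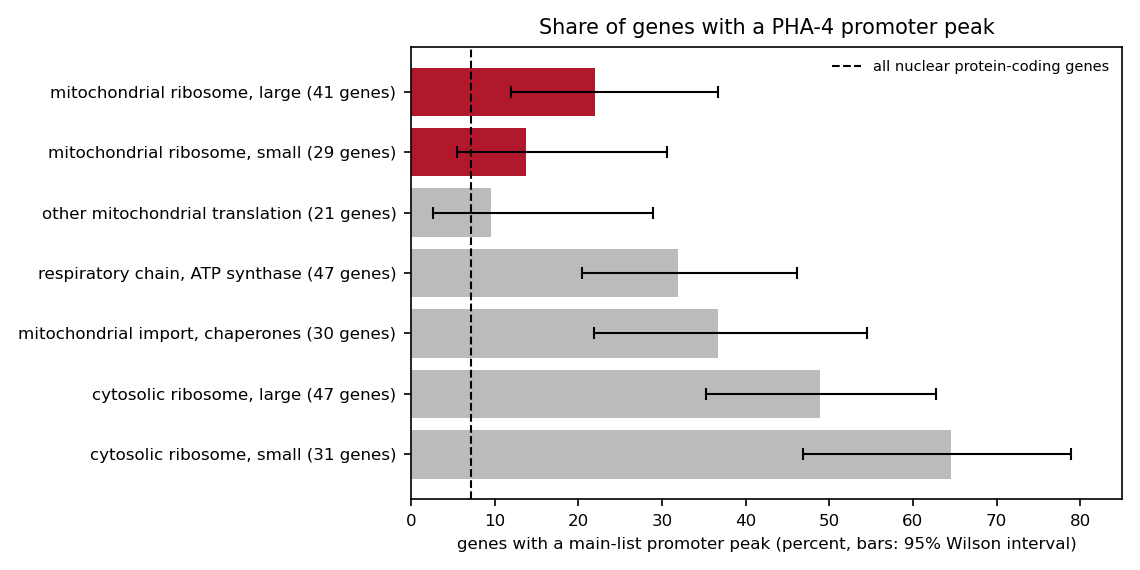
Percent of genes with a main-list promoter peak in each gene list, with 95% Wilson intervals that cover counting error over genes; the dashed line is the share of all nuclear protein-coding genes (7.15%). The mitochondrial ribosome (red, 22% and 13.8%) lies below both subunits of the cytosolic ribosome (48.9% and 64.5%).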

How the data were processed

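The authors deposited ChIP-seq peak lists on the ce11 (WBcel235) assembly, made from filtered alignments with a control, per the file notes. Aligner, peak caller and read depth are not given in the sources used here. The deposited signal value of each peak, the deposited −log10 of its IDR (ranked lists) and its summit offset in bp were used as given. The lists comprised a thresholded and a ranked list for each replicate, and for both replicates a less strict (main) and a stricter thresholded list and a ranked list from pooled reads.

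Peaks on the mitochondrial genome were left out. Gene starts came from Ensembl release 115, where 62 of 70 genes had the same coordinates in RefSeq, and no peak lay beyond a chromosome end. For each gene the strongest summit in the window was kept, and 1 summit could count for several genes. Shares carry 95% Wilson intervals. Python 3.11.15, numpy 2.4.6, pandas 2.3.3, scipy 1.17.1 and matplotlib 3.10.9 were used, and the window search was tested on simulated data. The members and lists were chosen with earlier results of these data known. Of 37 symbols named for other mitochondrial translation 16 were not in the annotation, of 10 for the respiratory chain 1, and of 33 for import and chaperones 3.

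The genes named were those with a main-list peak, those called in a replicate only, the 3 nearest below the threshold by IDR in pooled reads (4 genes, since 1 candidate is shared), up to 5 without a candidate, mrps-5 and dap-3, and up to 3 per other mitochondrial list. Others, such as mrps-31, the sixth gene without a candidate, first genes of runs and emc-6, were named after their values were seen. The planned signal columns of the between-replicate list gave way to each replicate's own ranked list. Alternatives were other lists, IDR limits, windows and assignments.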

Additional observations from a re-analysis of the deposited data

How the results depend on the processing

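The count of 13 mitochondrial ribosomal protein genes with a promoter peak became 6 in the stricter list, 3 to 7 with either replicate alone, 21 at an IDR of 0.05 and 6 in the narrow window. With assignments added after the data were seen, it became 7 for the nearest start of any gene type and 21 with the first gene of a tandem run. It stayed within 1.5 times with the wide window (16, or 22.9%, against 10.3% of all genes) and a summit given to the nearest protein-coding start (9, or 12.9%, against 5.72%). The same held for any transcript start (13, or 18.6%, against 7.93%) and peak overlap (13, or 18.6%, against 7.76%). The 9 genes include mrps-28, whose summit lay nearer to the start of Y43F8C.7 but outside the promoter window of that gene. By distance alone, a start of these genes was the nearest for 8 of 13 summits. The share of all genes, 7.15%, became 4.15% in the stricter list, 3.85% to 5.53% with either replicate alone and 4.44% for the nearest start of any type. The median signal value, 91.9, was 141.5 in the stricter list. Large minus small subunit, 8.16 percentage points, reversed to -3.03 in the stricter list, ranged from 1.43 to 5.3 with either replicate alone, and was 4.12 at an IDR of 0.05, 2.86 in the narrow window and 4.29 for the nearest start. The median summit position, -526 bp, was -742.5 bp in the stricter list, -184 bp at an IDR of 0.05 and -133 bp in the narrow window. Head-to-head minus close tandem genes, 6.21 points, ranged from -2.34 (reversed, replicate 1 alone) to 8.0 (replicate 2 alone). A forkhead word was in 30.0% of the 70 promoters of 300 bp, against 17.7% of all promoters. It was at 15.4% of the 13 summits, in windows of 101 bp, against 6.92% of all summits. These windows differ in length and in the genes covered, so the 2 shares cannot be compared directly. The stricter list holds fewer peaks, and the narrow window drops far summits by construction; the cause of the other changes was not tested.

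No paired analysis was possible because both replicates belong to 1 group and no result comes from a test. Without control reads or depth, a missing peak says only that none was deposited in these lists, and genes with few peaks leave wide intervals.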
